A study of Mus musculus with 40 samples.

Results

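The genes described here are 42 chaperones and unfolded protein response genes of the mouse, out of 21950 genes with a row in the deposited RNA-seq table. They were chosen by name for what their products do, with earlier results of these data known. All 42 had a row, and all 42 passed the filter on low values (10 normalized counts or more in 3 libraries or more) and were tested. They fell into 7 roles. The list holds 11 chaperones and co-chaperones of the endoplasmic reticulum (ER), 5 disulfide isomerases of the ER, 5 stress sensors and transcription factors, 4 genes of ER-associated degradation, 8 cytosolic heat shock genes, 3 mitochondrial chaperones and 6 subunits of the chaperonin CCT.

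RNA was measured in 24 libraries of mouse CD4+ T cells, in 8 groups of 3. Resting and activated conventional T cells (Tconvs) and resting and activated regulatory T cells formed in the thymus (tTregs, which the labels call nTreg) came from the spleens of Foxp3-GFP reporter mice aged 2 to 4 months. Induced regulatory T cells (iTregs) were made from naive CD4+ Foxp3-GFP− T cells of 6-week-old mice, which spent 4 days on plate-bound antibodies to CD3 and CD28 with TGF-β and IL-2 added, were sorted on the Foxp3 reporter, and then had 1 day of rest in IL-2. The iTreg groups were resting, restimulated, and restimulated with either CM-4620, which blocks the ORAI calcium channel and which the labels give as ORAIinh, or cyclosporin A (CsA), which blocks calcineurin and so NFAT. All mice were on the C57BL/6 background, and all groups except resting Tconvs and tTregs had met antibodies to CD3 and CD28 in culture, the resting iTregs included. Neither the length of the activation before RNA was taken nor the further gate of the Tconvs is given in the sources used here. Nothing in them says whether the 3 libraries of a group came from separate animals or cultures, so p-values measure the spread between these libraries, which may be technical.

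Chaperones hold newly made or damaged proteins in a state from which they can fold. In the ER the HSP70 protein BiP, encoded by *Hspa5*, works with HSP90B1, with the lectin chaperones calreticulin and calnexin, and with disulfide isomerases, while in the cytosol HSP70, HSP90 and the ring-shaped chaperonin CCT serve most other proteins and in mitochondria HSP60 and HSP10 form a chamber. When unfolded protein builds up in the ER, the sensors IRE1α (*Ern1*), PERK (*Eif2ak3*) and ATF6 raise ER chaperones and degradation genes, IRE1α by splicing the *Xbp1* transcript. This unfolded protein response is known in lymphocytes above all from plasma cells, which secrete antibody, and heat shock factor 1 (*Hsf1*) is the matching regulator of the cytosolic chaperones.

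The promoters of some of these genes carry the letters that these regulators are known to bind, and 5 are shown because they belong to the most expressed members with such a motif. RefSeq windows on GRCm38.p6 that run from 250 bases before to 50 bases after the annotated start were at hand for 33 of the 42 genes. The ER stress response element (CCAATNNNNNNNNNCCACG, either strand) was found in 39 of 32851 windows of all genes (0.119%) and in those of 8 members, *Calr*, *Canx*, *Creld2*, *Dnajc3*, *Hsp90b1*, *Hspa5*, *Pdia6* and *Syvn1*. Its short form ATTGGNCCACG was found in 12 windows (0.0365%) and in 2 members, *Dnajb11* and *Herpud1*. The core TGACGTG of the unfolded protein response element was found in 661 windows (2.01%) and in 1 member, *Hspa5*. The heat shock element (GAANNTTCNNGAA or TTCNNGAANNTTC) was found in 198 windows (0.603%) and in 3 members, *Hspd1*, *Hspe1* and *Hsph1*. A match is a match of letters and says nothing of binding in these cells. In the windows of *Canx* (chr11:50325624-50325923, minus strand), *Hspa5* (chr2:34771840-34772139, plus strand), *Hsp90b1* (chr10:86705395-86705694, minus strand), *Hspd1* (chr1:55087883-55088182, minus strand) and *Calr* (chr8:84846882-84847181, minus strand), capitals mark the motifs, read 5′ to 3′ along the gene. In *Hspa5* the first run of capitals is the TGACGTG core and the second the ER stress response element. In *Hsp90b1* the ER stress response element stands in both directions, and in *Hspd1* 2 overlapping heat shock elements form 1 run of capitals.
Canx: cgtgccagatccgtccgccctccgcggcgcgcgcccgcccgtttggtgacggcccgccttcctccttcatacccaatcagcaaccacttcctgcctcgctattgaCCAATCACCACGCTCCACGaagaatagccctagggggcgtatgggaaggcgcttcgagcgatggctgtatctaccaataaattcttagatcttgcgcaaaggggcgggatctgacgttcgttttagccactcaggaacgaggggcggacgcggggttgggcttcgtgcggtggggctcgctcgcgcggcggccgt
Hspa5: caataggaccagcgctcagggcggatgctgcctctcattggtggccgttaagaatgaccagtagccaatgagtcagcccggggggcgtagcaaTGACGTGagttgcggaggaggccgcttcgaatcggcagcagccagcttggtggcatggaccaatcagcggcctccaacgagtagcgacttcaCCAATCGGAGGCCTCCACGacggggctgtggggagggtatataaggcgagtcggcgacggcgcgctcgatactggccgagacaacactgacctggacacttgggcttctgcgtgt
Hsp90b1: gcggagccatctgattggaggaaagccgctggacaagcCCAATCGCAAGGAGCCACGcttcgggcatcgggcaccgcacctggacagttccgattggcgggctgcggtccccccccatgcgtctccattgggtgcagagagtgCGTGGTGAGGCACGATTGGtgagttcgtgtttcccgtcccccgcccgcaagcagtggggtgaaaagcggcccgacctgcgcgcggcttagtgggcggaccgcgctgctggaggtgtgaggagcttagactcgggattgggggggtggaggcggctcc
Hspd1: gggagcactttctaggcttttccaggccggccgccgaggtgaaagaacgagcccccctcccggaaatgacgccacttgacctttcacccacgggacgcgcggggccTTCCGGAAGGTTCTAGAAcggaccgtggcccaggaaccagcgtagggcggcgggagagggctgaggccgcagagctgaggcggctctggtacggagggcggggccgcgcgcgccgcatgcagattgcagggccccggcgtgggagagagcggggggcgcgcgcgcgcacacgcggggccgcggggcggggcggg
Calr: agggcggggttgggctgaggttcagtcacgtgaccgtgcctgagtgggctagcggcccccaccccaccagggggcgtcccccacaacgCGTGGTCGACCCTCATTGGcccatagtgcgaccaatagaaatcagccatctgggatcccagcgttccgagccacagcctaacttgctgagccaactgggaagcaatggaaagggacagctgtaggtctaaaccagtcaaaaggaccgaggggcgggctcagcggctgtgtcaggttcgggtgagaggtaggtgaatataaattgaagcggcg

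*Hspd1* (HSP60; chr1:55077835-55088243, minus strand) and *Hspe1* (HSP10; chr1:55088132-55091307, plus strand) lie head to head, so the heat shock elements of the *Hspd1* window are those of *Hspe1* read from the other strand. *Hspa5* lies at chr2:34771970-34777547, *Xbp1* at chr11:5520659-5525893 and *Sdf2l1* at chr16:17130138-17132383 in GENCODE release M21 on GRCm38. The values are gene totals over exons, and spliced and unspliced *Xbp1* were not separated.

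Between 5256800 and 15685234 reads per library stood behind the values, and the 6 tTreg libraries held 5256800 to 9893053. A floor of 3 reads was worth 2.12 to 5.45 normalized counts, and the smallest value of any member was 25 reads (*Sdf2l1* in a resting tTreg library). *Foxp3* averaged 10.4 normalized counts in resting Tconvs, 7537 in resting tTregs and 1280.0 in resting iTregs, as the labels say. Of 10 B and plasma cell markers with a row, *Ms4a1*, *Pax5* and *Tnfrsf17* were at 0 in all 24 libraries, while *Cd79b* reached 126 normalized counts. Their summed level was 34.2 to 41.3 normalized counts in resting Tconvs, 139 to 156 in resting tTregs and 42.5 to 60.1 in resting iTregs. The 6 CD8 T and NK cell markers summed to 338 to 356 in resting and 425 to 468 in activated Tconvs. Their sums were 161 to 178 in resting tTregs and 171 to 221 in resting iTregs. The 12 myeloid markers summed to 88.4 to 102 in resting Tconvs and to 6.05 to 8.35 in resting iTregs. The 7 proliferation markers also differed between the groups. Their sums were 1989 to 2186 in resting and 9895 to 10199 in activated Tconvs, and 1517 to 1856 in resting and 3235 to 4140.0 in activated tTregs. In iTregs they were 39607 to 40757 at rest and 32651 to 34061 after restimulation. The part of these markers in the results was not tested. In bulk samples a change in the cells present and a change in the RNA of each cell cannot be told apart. The heat-inducible HSP70 genes *Hspa1a* and *Hspa1b* reached at most 21.5 and 6.29 normalized counts, so the libraries held few reads of the most heat-responsive family members.

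Some members differed widely between the libraries of a group, in the same order. *Dnajb9*, *Dnajb11*, *Dnajc3*, *Sdf2l1*, *Xbp1* and *Hspa4* were lowest in replicate 3 of all 6 Tconv and iTreg groups, 6 of 42 members (14.3%) beside 454 of 11725 genes (3.87%). In resting iTregs *Xbp1* stood at 2566, 4321 and 1500.1 and *Hspa4* at 1814, 3142 and 1049 in replicates 1, 2 and 3. In activated Tconvs the same genes stood at 2307, 3375 and 1300.5 and 1945, 2823 and 1032. *Dnajc3*, *Sdf2l1* and *Hspa4* were also highest in replicate 2 of all 6 groups. The tTreg groups did not share the order, since *Xbp1* was highest in replicate 3 at rest and in replicate 1 after activation. The labels do not say what a replicate number stands for. These genes have wide standard errors in what follows (for *Xbp1* 0.66 among the Tconv, tTreg and resting iTreg libraries and 0.39 among the iTreg libraries).

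**Figure D1:**
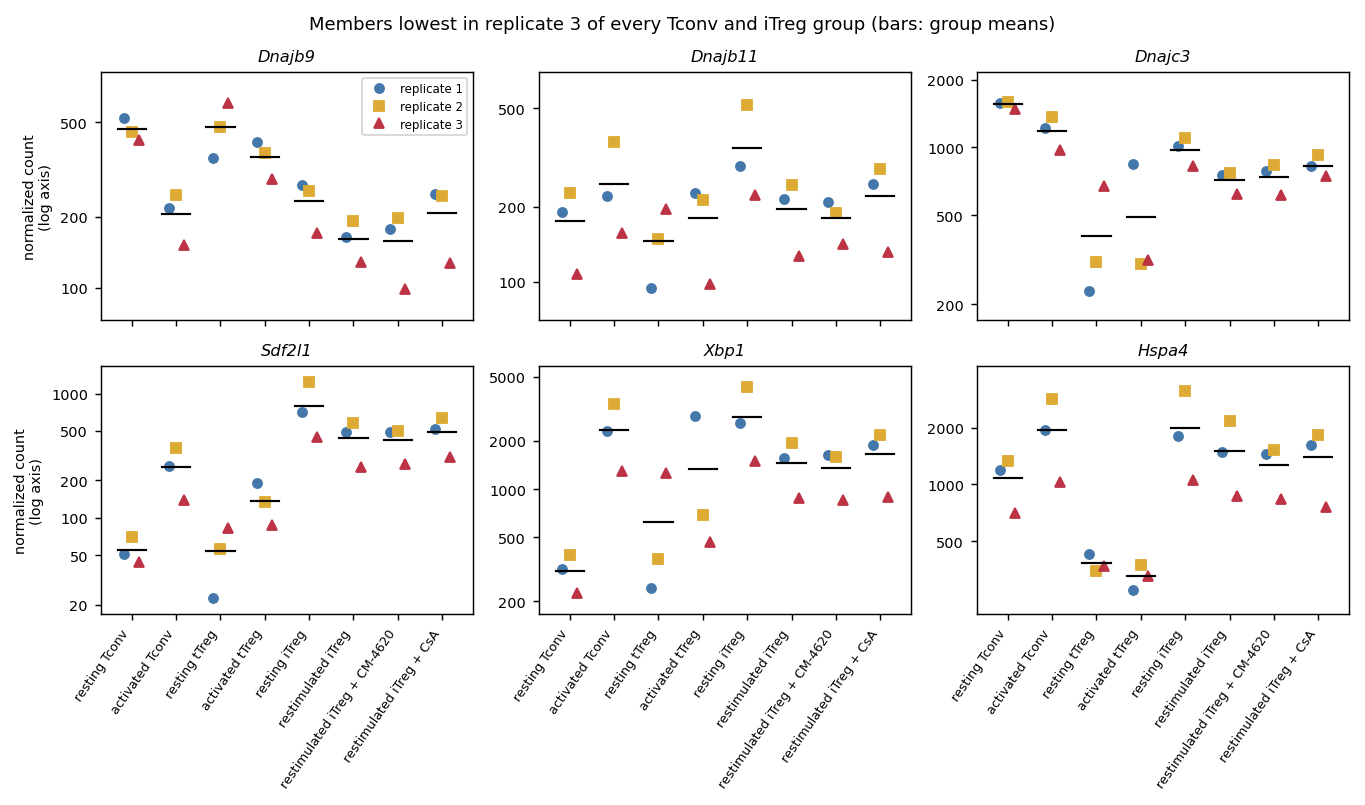
Normalized counts (log axis) of 6 genes in the 8 groups, with circles, squares and triangles for replicates 1, 2 and 3 and the group mean as a bar. The triangles are lowest in each Tconv and iTreg group, and in resting tTregs they are highest for all but *Hspa4*.

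Together the 42 genes took 1.03% ± 0.0115 (SD, n = 3) of all reads in resting Tconvs, 1.42% ± 0.0118 in resting tTregs and more than 2% in each other group, up to 2.34% ± 0.0402 in restimulated iTregs. Per kb of exon, *Hspa8* (the constitutive HSP70) was the highest member in resting Tconvs at 6096 ± 197 normalized counts (SD, n = 3), followed by *Hsp90ab1* at 3735 ± 42.7. Of the 42 genes, 17 had their lowest group mean in resting tTregs and 14 in resting Tconvs, and 20 had their highest in an iTreg group. The same counts were not made for all genes, and more of the groups were of iTregs than of either other cell type. They are therefore not read as a trait of these members. Some members had another order, and *Dnajc3* and *Hsf1* were highest in resting Tconvs and *Dnajb9* in resting tTregs.

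**Figure D2:**
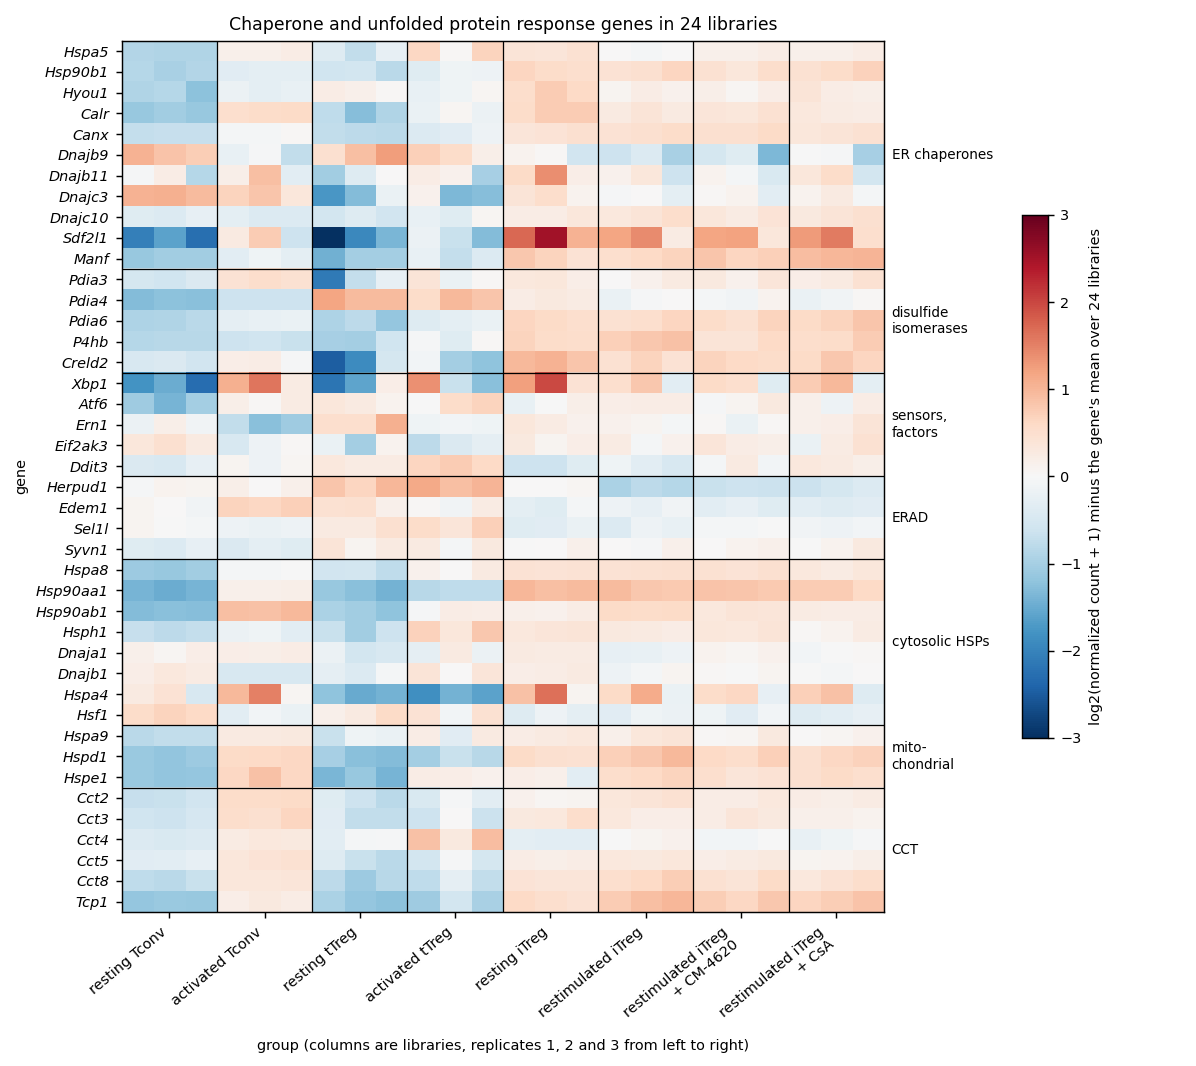
Level of each of the 42 genes (rows, by role) in each of the 24 libraries (columns, by group), as log2(normalized count + 1) minus the gene's mean over the libraries; red is above and blue below that mean. Resting Tconvs and tTregs are mostly blue, resting and restimulated iTregs mostly red, and the ER-associated degradation genes (ERAD) do not follow that order.

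The first question was how activation through CD3 and CD28 moved these genes in Tconvs and in tTregs. In Tconvs 26 of the 42 members rose and 4 fell, where 24.5% of the 11495 genes tested rose and 25.7% fell. In tTregs 12 rose and 1 fell, beside 11.9% and 10% of all genes. The median log2 fold change of the members was 0.69 in Tconvs and 0.35 in tTregs, where that of all genes was -0.040 and 0. A gene counted as risen or fallen where limma gave an adjusted p below 0.05 and a log2 fold change beyond 0.5 in size, on the scale of log2(normalized count + 1). The Tconv response minus the tTreg response, tested as an interaction, was positive for 13 members and negative for 4, beside 17% and 17.7% of all genes.

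Among the ER chaperones, 7 of 11 rose in Tconvs and 4 of 11 in tTregs. *Hspa5*, which encodes BiP, stood at 3027, 2968 and 2976 normalized counts in the 3 resting Tconv libraries and at 6147, 6156 and 6502 in the activated ones. In tTregs the resting libraries held 4224, 3327 and 4693 and the activated ones 8598, 5685 and 8797. Every activated library was above every resting library of its cell type, and *Hspa5* rose in both Tconvs (1.07 ± 0.145, adjusted p = 1.4e-05) and tTregs (0.90 ± 0.145, adjusted p = 3.2e-04). *Canx* (calnexin) went from 3730.3, 3788 and 3808 to 5941, 5943 and 6254 in Tconvs and from 3658, 3552 and 3494 to 4620.3, 4879 and 5488 in tTregs. It rose in Tconvs (0.68 ± 0.0705, adjusted p = 8.9e-07), while in tTregs the libraries did not overlap but the fold change was under the threshold of 0.5 (0.48 ± 0.0705, adjusted p = 1.6e-04). *Sdf2l1*, a co-factor of BiP, was the ER chaperone with the largest rise, from 51.4, 70.3 and 43.9 to 259, 367 and 139 in Tconvs (2.11 ± 0.474, adjusted p = 0.0013). Its 3 tTreg libraries were 22.7, 55.8 and 83.1 at rest and 189.9, 134 and 87.2 after activation (1.44 ± 0.474, adjusted p = 0.029), and that call was lost without activated tTreg replicate 1 (1.18, adjusted p = 0.11), activated replicate 2 (1.42, adjusted p = 0.057) or resting replicate 1 (0.93, adjusted p = 0.13). A fit of resting and activated tTregs alone lost it too (1.44, adjusted p = 0.063).

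*Calr*, the soluble lectin chaperone calreticulin, rose in Tconvs from 1622 ± 63.1 to 5116 ± 131 and in tTregs from 1789 ± 317 to 3262 ± 321 normalized counts (SD, n = 3), and its rise was larger in Tconvs (difference 0.78 ± 0.161, adjusted p = 0.0014). *Hyou1*, a nucleotide exchange factor of BiP, rose in Tconvs (0.76 ± 0.114, adjusted p = 3.8e-05) and not past the threshold in tTregs (-0.23 ± 0.114, adjusted p = 0.13), with a difference of 0.99 ± 0.162, adjusted p = 2.2e-04. Its resting tTreg libraries, at 421 to 483, were already above the activated Tconv libraries at 337 to 367. *Manf* rose in both cell types, and *Hsp90b1* rose in Tconvs. *Dnajb9* (ERdj4), a BiP co-chaperone, was the member that fell most in Tconvs, from 523, 457 and 422 to 218, 246 and 151 (-1.21 ± 0.23, adjusted p = 3.3e-04). None of its activated Tconv libraries reached a resting one, whereas its resting (352, 478 and 604) and activated tTreg libraries (415, 372 and 287) overlapped. *Dnajb11*, *Dnajc3* and *Dnajc10* passed the thresholds in neither cell type.

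The disulfide isomerases make the cross-links of secreted and membrane proteins. *Pdia3* and *Pdia6* rose in both Tconvs and tTregs. *Pdia3* (ERp57) went from 5893, 5675 and 6342 to 11590.2, 12376 and 11767 in Tconvs (1.00 ± 0.314, adjusted p = 0.013), a call that quantile normalization ended (0.78, adjusted p = 0.068). Its tTreg libraries spread widely at rest, at 1978, 5176 and 7213, and stood at 11154, 7467 and 8789.9 after activation (1.10 ± 0.314, adjusted p = 0.014). The tTreg groups did not overlap, but the call was lost without activated tTreg replicate 1 (0.95, adjusted p = 0.059). A fit of resting and activated tTregs alone lost it too (1.10, adjusted p = 0.098). *P4hb*, which encodes the isomerase PDI itself, held 3089, 3016 and 4046 at rest and 5989.9, 4734 and 6289 after activation in tTregs, all higher (0.75 ± 0.114, adjusted p = 2.2e-04). In Tconvs it went from 3372, 3454 and 3428 to 4006, 4012 and 3865, a change too small for the threshold (0.21 ± 0.114, adjusted p = 0.12). The difference between the cell types passed narrowly (-0.53 ± 0.162, adjusted p = 0.017) and no longer did without activated tTreg replicate 1 or 3 or resting tTreg replicate 1 or 2 (-0.45 to -0.49, adjusted p = 0.037 to 0.045). *Pdia4* (ERp72) rose in Tconvs from 1388, 1474 and 1449 to 2242, 2257 and 2249 (0.65 ± 0.0936, adjusted p = 2.7e-05) and was highest of all groups in resting tTregs, at 7772, 6606 and 6674, with 5086, 6776 and 6109 after activation (-0.23 ± 0.0936, adjusted p = 0.066). *Creld2* passed in neither cell type.

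Of the sensors and transcription factors, *Xbp1* had the largest rise of all 42 members in Tconvs. It stood at 318, 390.2 and 225 at rest and at 2307, 3375 and 1300.5 after activation (2.83 ± 0.656, adjusted p = 0.0016). Every activated Tconv library was above every resting one. In tTregs the resting libraries held 241, 367 and 1259.7 and the activated ones 2841, 688 and 465, so the groups overlapped (1.01 ± 0.656, adjusted p = 0.25), and the difference between the cell types did not pass (1.82 ± 0.928, adjusted p = 0.14). *Atf6*, the sensor that is cut in the Golgi to give a transcription factor, rose in Tconvs (1.32 ± 0.171, adjusted p = 8.7e-06) and more than in tTregs (difference 1.17 ± 0.241, adjusted p = 0.0015). *Ern1* (IRE1α), which splices *Xbp1*, fell in both, in Tconvs from 52.5, 66.6 and 55.3 to 35, 24.1 and 27.6 (-0.99 ± 0.188, adjusted p = 3.3e-04) and in tTregs from 84.4, 84.3 and 124 to 53.9, 55.8 and 54.5 (-0.80 ± 0.188, adjusted p = 0.0048). No activated library of either cell type reached its resting ones. *Ddit3* (CHOP), a transcription factor tied to prolonged ER stress, held 304, 294 and 342 and then 431, 365 and 422 in Tconvs, and 511, 483 and 485 and then 641, 696 and 621 in tTregs. The libraries did not overlap in either cell type, yet the fold changes stayed under 0.5 (0.37 ± 0.101, adjusted p = 0.005 and 0.40 ± 0.101, adjusted p = 0.0071). *Eif2ak3* (PERK) passed in neither.

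In ER-associated degradation, which returns misfolded protein to the cytosol, *Edem1* alone of 4 genes rose in Tconvs, from 912, 870.4 and 805 to 1370.2, 1330.0 and 1425 (0.67 ± 0.112, adjusted p = 9.7e-05). In tTregs it stood at 1190.2, 1203 and 962 at rest and 896, 811 and 1029.9 after activation (-0.29 ± 0.112, adjusted p = 0.055), and the cell types differed (0.97 ± 0.158, adjusted p = 2.2e-04). *Herpud1*, a ubiquitin-like membrane protein, held 1332, 1453 and 1449 in resting and 1534, 1367 and 1523 in activated Tconvs, which overlapped (0.062 ± 0.0906, adjusted p = 0.57). Its tTreg libraries were all higher than its Tconv libraries, at 2409, 2133 and 2699 at rest and 3009.7, 2557 and 2756 after activation. *Sel1l*, the adaptor of the ligase SYVN1, held 961, 899 and 875 and 819.8, 789 and 823 in resting and activated Tconvs and 1087, 1089 and 1259 and 1336, 1170.3 and 1484 in the tTreg groups, with no change past the thresholds (-0.17 ± 0.0932, adjusted p = 0.13 and 0.21 ± 0.0932, adjusted p = 0.09).

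Cytosolic chaperones carried more of the reads than any other role. Their share of all reads was 0.475% ± 0.00561 in resting and 1.11% ± 0.02 in activated Tconvs, and 0.669% ± 0.0398 in resting and 1.09% ± 0.0636 in activated tTregs (SD, n = 3). *Hspa8* rose in Tconvs from 26129.5, 25421 and 27107 to 53919, 53616 and 55486 (1.05 ± 0.0887, adjusted p = 9.6e-08). In tTregs it rose from 37364, 38022 and 32866 to 60668, 56035 and 66862 (0.76 ± 0.0887, adjusted p = 2.6e-05). The groups were apart in both cell types, though the tTreg call was lost with quantile normalization (0.30, adjusted p = 0.034). *Hsp90ab1*, the constitutive cytosolic HSP90, rose in Tconvs from 11088, 11341 and 11177 to 51104, 50222 and 53009 (2.20 ± 0.0879, adjusted p = 2.9e-11). Its tTreg libraries went from 14041, 13233 and 11749.8 to 26405, 31649 and 31007 (1.19 ± 0.0879, adjusted p = 6.0e-07), a smaller rise (difference 1.01 ± 0.124, adjusted p = 1.7e-05). The inducible *Hsp90aa1* rose in Tconvs, from 2164 ± 77.3 to 6517 ± 76.3 (1.59 ± 0.0729, adjusted p = 1.3e-10), and in tTregs went from 2407 ± 233 to 3378 ± 93.2 (SD, n = 3), just under the threshold (0.49 ± 0.0729, adjusted p = 1.7e-04), again with a difference between the cell types (1.10 ± 0.103, adjusted p = 1.2e-06).

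In 3 cytosolic members the difference of the Tconv from the tTreg response was negative. *Dnajb1* (HSP40), a co-chaperone of HSP70, fell in Tconvs from 1979.8, 2157 and 2035 to 1244, 1226 and 1231 (-0.74 ± 0.102, adjusted p = 1.8e-05). Its tTreg libraries went from 1439, 1304 and 1655 to 2265, 1730.4 and 2223, all higher but just short of a fold change of 0.5 (0.50 ± 0.102, adjusted p = 0.002). The difference of -1.23 ± 0.145 (adjusted p = 1.1e-05) was the largest negative one that passed. *Hsph1*, an HSP110 that helps HSP70 exchange nucleotide, rose more in tTregs (1.38 ± 0.123, adjusted p = 2.3e-06) than in Tconvs (0.53 ± 0.123, adjusted p = 0.0017; difference -0.85 ± 0.174, adjusted p = 0.0013), and its Tconv call was lost without activated replicate 2 (0.49, adjusted p = 0.0094) or resting replicate 2 (0.50, adjusted p = 0.0085). *Hsf1* fell in Tconvs (-0.80 ± 0.142, adjusted p = 1.8e-04) and not past the thresholds in tTregs (-0.062 ± 0.142, adjusted p = 0.77; difference -0.74 ± 0.201, adjusted p = 0.0091). *Dnajb1* is also one of the 11 handling-stress genes on the marker list, which summed to 3229 to 3864 in resting and 3717 to 4345 in activated Tconvs and to 2829 to 7009 in resting and 5395 to 10454 in activated tTregs. Their part in these values was not tested. *Dnaja1* and *Hspa4* passed in neither cell type.

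All 3 mitochondrial chaperones rose in Tconvs, and 1 of them, *Hspe1*, in tTregs. *Hspd1* (HSP60) went from 1796, 1690.2 and 1824 to 5792, 5886 and 5928 in Tconvs (1.73 ± 0.0939, adjusted p = 7.9e-10). In tTregs it stood at 1938, 1619 and 1564 at rest and 1920.3, 2432 and 2169 after activation, and the groups overlapped (0.35 ± 0.0939, adjusted p = 0.011). The difference of 1.38 ± 0.133, adjusted p = 1.5e-06 was the largest positive one that passed. *Hspe1*, which encodes the HSP10 lid of the HSP60 chamber and shares its promoter region, rose in Tconvs from 933, 892 and 899.6 to 3120.2, 3677 and 3115 (1.86 ± 0.119, adjusted p = 5.2e-09). In tTregs it rose, from 781, 916 and 761 to 2342, 2306 and 2187 (1.48 ± 0.119, adjusted p = 1.1e-06), and its difference between the cell types did not pass (0.38 ± 0.169, adjusted p = 0.089; 95% interval 0.018 to 0.74). *Hspa9* (mortalin), the mitochondrial HSP70, went from 2162, 2255 and 2269.8 to 4518, 4563 and 4637 in Tconvs (1.04 ± 0.146, adjusted p = 2.0e-05). Its tTreg libraries were 2391, 3431 and 3277 and then 4418, 2981 and 4521, which overlapped. Its difference (0.65 ± 0.206, adjusted p = 0.02) was lost without activated tTreg replicate 2 (0.46, adjusted p = 0.03) or resting tTreg replicate 2 (0.56, adjusted p = 0.054).

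The CCT subunits, which fold actin, tubulin and other cytosolic proteins, all rose in Tconvs, and only *Cct4* of the 6 did in tTregs. *Cct5* went from 5265, 5407 and 5631 to 8440.3, 8909 and 9250.3 in Tconvs (0.71 ± 0.128, adjusted p = 2.1e-04). Its tTreg libraries held 5141, 4221 and 3851 at rest and 4549, 6602 and 4636 after activation (0.25 ± 0.128, adjusted p = 0.15), with overlap. *Cct4* rose in Tconvs from 4584, 4454 and 4648 to 7281, 7616 and 7501 (0.71 ± 0.13, adjusted p = 2.3e-04) and in tTregs from 4905, 5912 and 6015 to 11367, 7566 and 11609 (0.84 ± 0.13, adjusted p = 2.3e-04). *Tcp1* (the α subunit) rose from 2402 ± 36.7 to 6195 ± 218 in Tconvs, and its tTreg means were 2448 ± 257 at rest and 2935 ± 580.1 after activation (SD, n = 3). The Tconv response was the larger for *Cct2* (0.88 ± 0.154, adjusted p = 4.0e-04), *Cct3* (0.92 ± 0.215, adjusted p = 0.0034), *Cct8* (0.79 ± 0.162, adjusted p = 0.0013) and *Tcp1* (1.12 ± 0.16, adjusted p = 7.1e-05). It did not differ past the thresholds for *Cct4* (-0.13 ± 0.183, adjusted p = 0.62) and *Cct5* (0.46 ± 0.18, adjusted p = 0.056). In activated tTregs, replicate 2 held the highest value of *Cct2*, *Cct3*, *Cct5*, *Cct8* and *Tcp1* and the lowest of *Cct4* and *Hspa5*, so the 3 libraries of that group were not alike in these genes, and the calls of *Cct4* and *Hspa5* were kept without it.

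**Figure D3:**
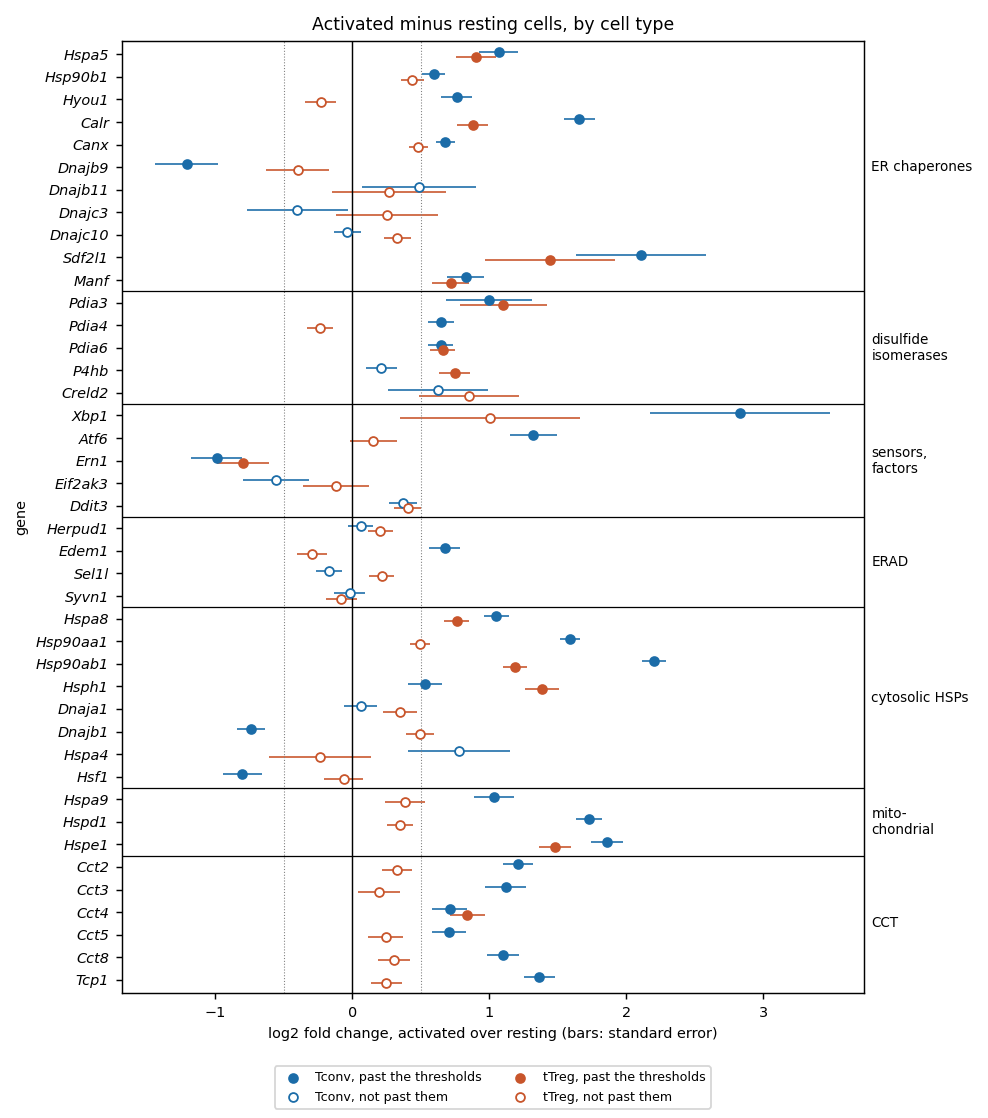
Log2 fold change of each gene, activated over resting (horizontal axis), in Tconvs (blue) and tTregs (orange), with the standard error as a bar; filled points passed both thresholds and dotted lines mark a log2 fold change of 0.5 in either direction. The CCT and mitochondrial genes lie further right in Tconvs except *Cct4*, and *Dnajb1* lies left of 0 in Tconvs and right of it in tTregs.

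Resting tTregs were next set against resting Tconvs. In tTregs 7 of the 42 members were higher and 5 lower, where 20.5% and 18.2% of all genes were. Quantile normalization gave 12 members higher and 4 lower, with 2171 and 2181 of all genes. The members' median log2 difference was -0.013 and that of all genes -0.015, against 0.087 and -0.053 with quantile normalization. The highest was *Pdia4*, at 7772, 6606 and 6674 in tTregs against 1388, 1474 and 1449 in Tconvs (2.28 ± 0.0936, adjusted p = 4.7e-11). The other 6 were *Atf6* (1.41 ± 0.171, adjusted p = 6.9e-06), *Hyou1* (1.13 ± 0.114, adjusted p = 1.1e-06), *Herpud1* (0.77 ± 0.0906, adjusted p = 5.2e-06), *Ern1* (0.72 ± 0.188, adjusted p = 0.005), *Ddit3* (0.65 ± 0.101, adjusted p = 7.5e-05) and *Syvn1* (0.59 ± 0.114, adjusted p = 5.5e-04). With both counts below the shares of all genes, no pattern by role is read from them. *Dnajc3* (P58IPK), an ER co-chaperone, was the lowest, at 229.5, 309 and 671 in tTregs against 1579, 1600.1 and 1479 in Tconvs (-2.10 ± 0.37, adjusted p = 2.5e-04). *Hspa4*, another HSP110, was lower too, at 430.0, 348 and 368 against 1190.0, 1338 and 707 (-1.45 ± 0.373, adjusted p = 0.0045).

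The other 3 lower members lost their calls without single libraries. *Creld2* (-1.14 ± 0.367, adjusted p = 0.018) was lost without resting tTreg replicate 1 (-0.71, adjusted p = 0.083) or 2 (-1.01, adjusted p = 0.065). *Eif2ak3* (-0.74 ± 0.241, adjusted p = 0.019) was lost without resting tTreg replicate 2 (-0.41, adjusted p = 0.1) or resting Tconv replicate 2 (-0.67, adjusted p = 0.064). *Dnaja1* (-0.54 ± 0.122, adjusted p = 0.0018) was lost without resting tTreg replicate 2 (-0.46, adjusted p = 0.011).

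Resting iTregs, 1 day after their induction, held more of most of these transcripts than either resting cell type. Against resting Tconvs 27 of 42 members were higher and 2 lower, beside 32.8% and 30.8% of all genes. Against resting tTregs 29 were higher and 7 lower, beside 32.3% and 31.1%. Against activated Tconvs 12 were higher and 5 lower, beside 22.9% and 18.7%, so the share of members there was nearer to that of all genes. The members' median log2 differences were 1.06, 1.02 and 0.21 in that order, where those of all genes were 0.016, 0.015 and 0.022. The comparisons share the resting iTreg libraries and are given side by side. Quantile normalization moved the median of all genes in them to -0.121, -0.104 and -0.110 and that of the members to 0.92, 0.59 and 0.11. With it the calls against activated Tconvs split as 2095 genes higher and 2835 lower, in place of 2634 and 2150, and the members' counts were 12 and 5 as before. Against resting Tconvs it gave 24 members higher and 2 lower (*Pdia3*, *Cct5* and *Dnajc10* lost their calls), beside 3308 and 4045 of all genes. Against resting tTregs it gave 23 and 9 (*Hspa5*, *Cct2*, *Cct5*, *Dnaja1*, *Hspa9* and *Eif2ak3* lost theirs), beside 3313 and 3999 of all genes. In the main fit all genes had split as 3773 higher and 3541 lower against resting Tconvs, and as 3713 and 3580 against resting tTregs. Proliferation markers, given above, were highest in these libraries, and the 11 handling-stress genes summed to 5781 to 7807 in them against 3229 to 3864 in resting Tconvs, and their part was not tested.

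Against resting Tconvs, 8 of 11 ER chaperones and all 5 disulfide isomerases were higher. *Sdf2l1* differed most, at 712, 1234 and 444 in resting iTregs against 51.4, 70.3 and 43.9 in resting Tconvs (3.73 ± 0.474, adjusted p = 4.3e-06). It was also higher than in resting tTregs (3.92 ± 0.474, adjusted p = 2.7e-06) and than in activated Tconvs (1.62 ± 0.474, adjusted p = 0.0092), the last call being lost without resting iTreg replicate 2 (1.24, adjusted p = 0.054) or activated Tconv replicate 3 (1.24, adjusted p = 0.053). *Canx* held 7936, 8134 and 8550.4 and *Hspa5* 7230.1, 7178 and 7629 in resting iTregs, above every library of both resting cell types, and of these 4 differences only that of *Hspa5* from resting tTregs lost its call with quantile normalization (0.49, adjusted p = 0.014). *Hsp90b1* (GRP94), the ER form of HSP90, was at 7854 ± 339.5 in resting iTregs, 4277 ± 79.9 in activated Tconvs and 2833 ± 103 in resting Tconvs (SD, n = 3), and was higher than in activated Tconvs (0.88 ± 0.0844, adjusted p = 5.7e-07). *P4hb*, at 9730.1, 8912 and 8849, exceeded resting (1.42 ± 0.114, adjusted p = 2.7e-08) and activated Tconvs (1.21 ± 0.114, adjusted p = 4.8e-07). *Pdia4* stood between, at 4047, 4208 and 4101, higher than in resting Tconvs (1.52 ± 0.0936, adjusted p = 1.3e-09) and lower than in resting tTregs (-0.76 ± 0.0936, adjusted p = 3.1e-06). *Pdia3*, at 10634, 10730.2 and 9781, passed against resting Tconvs (0.80 ± 0.314, adjusted p = 0.033) but not without any 1 of the 6 libraries compared (0.76 to 0.84, adjusted p = 0.053 to 0.077). That error is shared over the whole fit, in which the tTreg libraries spread most. The SD of *Pdia3* was 2639 in resting tTregs, 340 in resting Tconvs and 522.5 in resting iTregs (n = 3). In a fit of the compared groups alone the call was kept.

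Not every ER chaperone was higher. *Dnajb9*, at 272, 257 and 170.0 in resting iTregs, was lower than in resting Tconvs (-1.03 ± 0.23, adjusted p = 9.4e-04) and resting tTregs (-1.03 ± 0.23, adjusted p = 9.3e-04). No resting iTreg library reached a library of either. *Dnajc3*, at 1011, 1101 and 822, was below resting Tconvs in every library, at 1579, 1600.1 and 1479, and did not pass (-0.68 ± 0.37, adjusted p = 0.11). *Dnajb11* was higher than in resting tTregs (1.20 ± 0.416, adjusted p = 0.017), a call lost without resting iTreg replicate 2 (0.86, adjusted p = 0.094) or resting tTreg replicate 1 (0.92, adjusted p = 0.07).

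The sensors divided. *Xbp1*, at 2566, 4321 and 1500.1 in resting iTregs, was higher than in resting Tconvs (3.07 ± 0.656, adjusted p = 6.3e-04) and resting tTregs (2.40 ± 0.656, adjusted p = 0.0041) and did not differ past the thresholds from activated Tconvs (0.24 ± 0.656, adjusted p = 0.78; 95% interval -1.16 to 1.64). *Ddit3*, at 267, 266 and 317, was lower than in resting tTregs (-0.80 ± 0.101, adjusted p = 4.3e-06) and activated Tconvs (-0.52 ± 0.101, adjusted p = 5.3e-04), the latter lost without resting iTreg replicate 1 or 2 or activated Tconv replicate 1 or 3 (-0.47 to -0.49). *Ern1*, at 74.8, 70.6 and 64.5, was higher than in activated Tconvs (1.26 ± 0.188, adjusted p = 4.8e-05). *Eif2ak3* passed against resting tTregs (0.57 ± 0.241, adjusted p = 0.045) but not without resting tTreg replicate 2 (0.25, adjusted p = 0.27) or any of the resting iTreg libraries (0.52 to 0.62, adjusted p = 0.061 to 0.11). None of the 4 degradation genes was higher in resting iTregs. *Herpud1*, at 1379.6, 1371 and 1413, *Sel1l*, at 710.4, 720.3 and 795, and *Edem1*, at 709, 673 and 832, were all lower than in resting tTregs (-0.79 ± 0.0906, -0.62 ± 0.0932 and -0.60 ± 0.112, adjusted p = 1.5e-06, 2.4e-05 and 2.0e-04). *Edem1* was the member furthest below activated Tconvs (-0.90 ± 0.112, adjusted p = 7.6e-06).

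Cytosolic HSP90 differed by gene. *Hsp90aa1* stood at 11554, 10865 and 11176 in resting iTregs, above resting Tconvs (2.37 ± 0.0729, adjusted p = 6.3e-13), resting tTregs (2.22 ± 0.0729, adjusted p = 2.2e-12) and activated Tconvs (0.78 ± 0.0729, adjusted p = 4.2e-07). *Hsp90ab1*, at 30204, 29713 and 31628, was above both resting cell types (1.45 ± 0.0879 and 1.23 ± 0.0879, adjusted p = 1.1e-09 and 8.1e-09) and below activated Tconvs (-0.75 ± 0.0879, adjusted p = 4.1e-06). In neither case did iTreg and activated Tconv libraries overlap. *Hspa8* held 74759, 73484 and 75672, the largest level per kb of the set in these cells, and was above both resting cell types (1.51 ± 0.0887 and 1.05 ± 0.0887, adjusted p = 7.6e-10 and 5.4e-08). *Hsf1* was lower than in resting Tconvs (-0.88 ± 0.142, adjusted p = 4.8e-05) and resting tTregs (-0.61 ± 0.142, adjusted p = 0.0012), and lost the latter call without resting tTreg replicate 3 (-0.49, adjusted p = 0.0076).

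All 3 mitochondrial chaperones were higher in resting iTregs than in both resting cell types. *Hspd1* held 5769, 5377 and 5286 (1.63 ± 0.0939 over resting Tconvs) and did not differ past the thresholds from activated Tconvs (-0.10 ± 0.0939, adjusted p = 0.39; 95% interval -0.30 to 0.10). *Hspe1*, at 2319, 2231 and 1628, was below activated Tconvs (-0.70 ± 0.119, adjusted p = 1.8e-04). *Hspa9* held 4378, 4581 and 4708, and its difference from resting tTregs (0.60 ± 0.146, adjusted p = 0.0017) was lost without resting tTreg replicate 1 (0.44, adjusted p = 0.0082). Of the CCT subunits 5 of 6 were higher than in each resting cell type, led by *Tcp1* (1.64 ± 0.113 and 1.61 ± 0.113, adjusted p = 4.8e-09 and 6.6e-09). *Cct4* was the exception, at 5034, 4935 and 4936, not past the thresholds against resting Tconvs (0.12 ± 0.13, adjusted p = 0.4) and below activated Tconvs (-0.59 ± 0.13, adjusted p = 0.0014). *Cct5*, at 7829.8, 7575 and 7825, passed against resting Tconvs (0.51 ± 0.128, adjusted p = 0.0021), though not without resting Tconv replicate 1 (0.49, adjusted p = 0.0096).

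**Figure D4:**
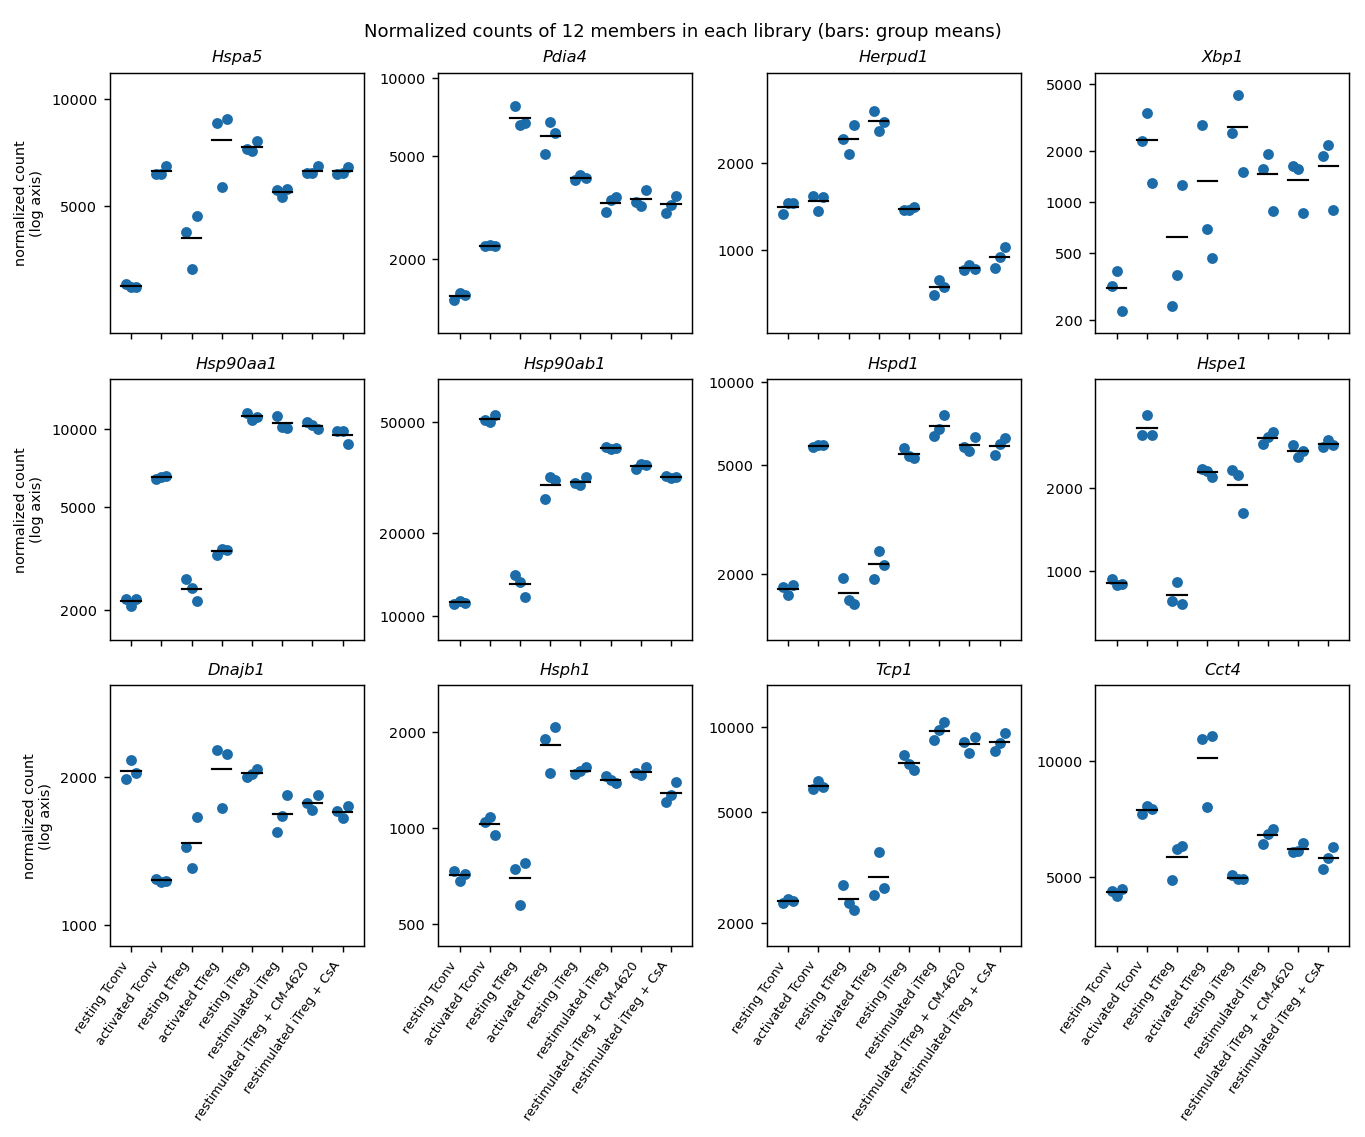
Normalized counts (log axis) of 12 genes in each library (points) of the 8 groups, with the group mean as a bar. *Hsp90aa1* is highest in the iTreg groups, *Hsp90ab1* in activated Tconvs, *Pdia4* in tTregs, and *Herpud1* falls from resting to restimulated iTregs with no overlap.

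Restimulation of iTregs moved few of these genes past the thresholds. Only 1 of 42 members rose and 1 fell, beside 6.7% and 6.13% of the 11105 genes tested in the iTreg libraries. edgeR and DESeq2 on the recovered reads each gave the same counts, and 23 members had an unadjusted p below 0.05, 10 of them higher and 13 lower. For the counts at that unadjusted p, here and with the inhibitors below, no share of all genes was computed. They do not show whether the members stand out. *Herpud1* fell from 1379.6, 1371 and 1413 to 701, 790.1 and 751 (-0.89 ± 0.0677, adjusted p = 2.0e-07). All 3 restimulated libraries were below all resting ones. *Hspe1* rose from 2319, 2231 and 1628 to 2896, 3060.5 and 3188 (0.58 ± 0.101, adjusted p = 5.3e-04), a call lost without resting iTreg replicate 3, its lowest library (0.42, adjusted p = 1.4e-04).

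Below the fold threshold values of both signs were found, also within a role. Of the ER chaperones, *Hspa5* went from 7230.1, 7178 and 7629 to 5565, 5314 and 5589 (-0.42 ± 0.048, adjusted p = 1.2e-05), with no overlap. *Calr* (-0.38 ± 0.0627, adjusted p = 3.4e-04) and *Hyou1* (-0.48 ± 0.0834, adjusted p = 5.2e-04) had values of the same sign, whereas *Canx* went from 7936, 8134 and 8550.4 to 8341, 8623 and 9053 (0.079 ± 0.0532, adjusted p = 0.29). *P4hb* was at 10127, 10726 and 11266 and *Pdia3* at 8634, 9273 and 10255 after restimulation (0.22 ± 0.0745, adjusted p = 0.034 and -0.15 ± 0.079, adjusted p = 0.18). In the cytosol *Hsp90ab1* stood at 40619, 40035 and 40260.3 (0.40 ± 0.0464, adjusted p = 1.3e-05) and *Dnaja1*, a co-chaperone of HSP70, went from 5891 ± 55.1 to 4258 ± 139 (SD, n = 3; -0.47 ± 0.049, adjusted p = 5.1e-06), while *Hspa8*, at 75140.5, 76221 and 77642, did not pass (0.032 ± 0.0487, adjusted p = 0.66). *Hspd1* (0.34 ± 0.0731, adjusted p = 0.003), *Cct4* (0.36 ± 0.0561, adjusted p = 2.0e-04) and *Tcp1* (0.38 ± 0.0734, adjusted p = 0.0013) were higher, under the fold threshold. *Sdf2l1* and *Xbp1* had larger values with wide errors (-0.80 ± 0.369, adjusted p = 0.12 and -0.88 ± 0.392, adjusted p = 0.11), at 488, 583 and 257 and 1560.1, 1936 and 881 after restimulation. Their result depended on the handling of the replicate numbers. With a replicate block in the fit both passed as lower (adjusted p = 1.7e-05 and 4.0e-06), as did *Dnajb9* and *Dnajb11*. The count of members called went from 2 to 5 when resting iTreg replicate 3 was left out (*Dnajb11*, *Dnajc3*, *Sdf2l1*, *Xbp1* and *Herpud1*, all lower) and also to 5 without restimulated replicate 2 (*Hspe1* higher, *Hyou1*, *Dnajc3*, *Creld2* and *Herpud1* lower). The share of all genes called under these settings is not given here, so no excess of the members is read from them.

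The inhibitors were compared with restimulation alone. With CM-4620 no member passed, beside 1.5% higher and 1.79% lower of all genes. limma gave 10 members an unadjusted p below 0.05, and edgeR and DESeq2 called 0, while the 95% intervals of the 42 differences ran from -1.06 to 0.75. With CsA 1 member, *Ddit3*, was higher and none lower, beside 1.57% and 1.35% of all genes, and 18 members had an unadjusted p below 0.05. *Ddit3* stood at 377, 326 and 294 in restimulated iTregs, at 394, 489 and 385 with CM-4620 and at 510.0, 494 and 461 with CsA. Both treated groups were above all untreated libraries, with fitted differences of 0.35 ± 0.112 with CM-4620 (adjusted p = 0.079) and 0.56 ± 0.112 with CsA (adjusted p = 0.0062). The CsA call was lost without restimulated replicate 3 (0.48, adjusted p = 0.035). Between the inhibitors no member passed, beside 0.0991% higher and 0.261% lower of all genes, with 8 at an unadjusted p below 0.05 and 0 called by edgeR and DESeq2. For *Ddit3* that difference was -0.21 ± 0.112 (CM-4620 minus CsA, adjusted p = 0.5, 95% interval -0.45 to 0.025), and over the 42 members the 95% intervals ran from -1.08 to 0.77.

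*Herpud1*, the member that fell most on restimulation, was at 701, 790.1 and 751 without inhibitor, at 856, 889 and 866 with CM-4620 and at 872, 948 and 1026 with CsA, against 1379.6, 1371 and 1413 at rest. Its treated libraries were all above the untreated restimulated ones and all below the resting ones, and neither difference reached 0.5 (0.22 ± 0.0677, adjusted p = 0.061 and 0.34 ± 0.0677, adjusted p = 0.0058). *Hsp90ab1*, which was higher after restimulation, was lower in every treated than in every untreated library, at 33817, 35439.8 and 35182 with CM-4620 and 32018, 31574 and 31818 with CsA (-0.21 ± 0.0464, adjusted p = 0.011 and -0.34 ± 0.0464, adjusted p = 4.0e-04). *Hspa5* was at 6219, 6219 and 6478 and 6154, 6216 and 6457 (0.20 ± 0.048, adjusted p = 0.018 and 0.19 ± 0.048, adjusted p = 0.023), again apart from the untreated libraries. *Dnaja1* with CM-4620 (0.31 ± 0.049, adjusted p = 9.9e-04), *P4hb* with CM-4620 (-0.34 ± 0.0745, adjusted p = 0.0099) and *Manf*, a secreted ER protein, with CsA (0.39 ± 0.0843, adjusted p = 0.01) also had an adjusted p below 0.05 at a fold change under 0.5. All of these comparisons share the restimulated libraries.

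**Figure D5:**
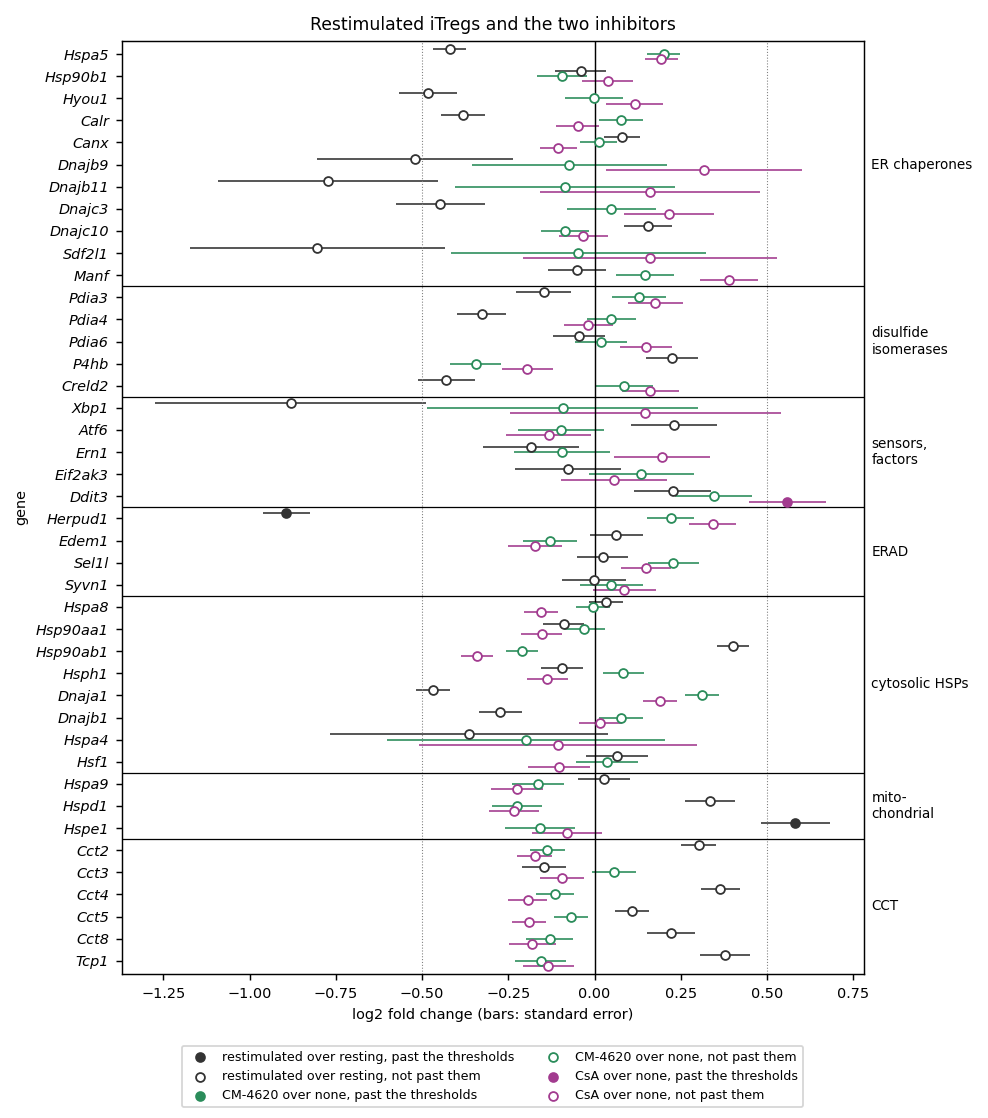
Log2 fold change of each gene in iTregs (horizontal axis, standard error as a bar) for restimulated over resting (black), CM-4620 over restimulation alone (green) and CsA over restimulation alone (purple); filled points passed both thresholds and dotted lines mark 0.5 in either direction. Only *Herpud1* and *Hspe1* after restimulation and *Ddit3* with CsA are filled.

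Further genes of the same pathways were listed by function, and their counts are to be read against the 24.5% of all genes that rose and 25.7% that fell in Tconvs, and the 11.9% and 10% in tTregs. On activation of Tconvs, of the other ER folding enzymes 5 of 22 rose and 2 fell, of the genes for protein entry into the ER and its glycosylation 8 of 22 rose and 2 fell, of the other degradation genes 0 of 20 rose and 2 fell, of the other cytosolic chaperones 8 of 31 rose and 4 fell, of the other mitochondrial chaperones and proteases 5 of 14 rose and 1 fell, and of the other CCT subunits with prefoldin 4 of 10 rose and 0 fell. In tTregs the same lists, in that order, gave rises and falls of 4 and 0, 4 and 0, 2 and 1, 5 and 0, 3 and 0, and 2 and 1. The largest rises in Tconvs were *Fkbp2*, an ER prolyl isomerase (1.07 ± 0.161, adjusted p = 3.8e-05), *Spcs3*, a signal peptidase subunit (1.17 ± 0.0868, adjusted p = 2.5e-08), *Bag2*, a co-chaperone of HSP70 (1.72 ± 0.232, adjusted p = 1.3e-05), *Trap1*, the mitochondrial HSP90 (1.08 ± 0.0867, adjusted p = 5.7e-08), and *Pfdn1*, a prefoldin subunit that hands actin and tubulin to CCT (1.66 ± 0.0911, adjusted p = 9.2e-10). *Bag3* fell most of the cytosolic list (-1.39 ± 0.248, adjusted p = 1.9e-04).

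Of 17 other unfolded protein response genes, 4 rose and 4 fell in Tconvs, near the 24.5% and 25.7% of all genes. *Chac1*, a glutathione-degrading enzyme induced through ATF4, held 2.81 to 7.02 normalized counts in resting and 198 to 209 in activated Tconvs (5.15 ± 0.252, adjusted p = 2.5e-10), a fold change that depends on the added 1 at so few counts. *Trib3*, a pseudokinase also downstream of ATF4 and CHOP, fell, with 1006 to 1098 in resting and 359 to 389.9 in activated Tconvs (-1.48 ± 0.143, adjusted p = 4.1e-07). In tTregs 1 of the 17 rose, *Tmbim6* (0.51 ± 0.116, adjusted p = 0.004), and none fell, while *Chac1* was already at 51.9 to 92.3 at rest and at 84.8 to 102 after activation.

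In resting iTregs against resting Tconvs, where 32.8% of all genes were higher and 30.8% lower, of the genes for entry into the ER and glycosylation 15 of 22 were higher and 2 lower and of the other ER folding enzymes 9 of 22 were higher and 3 lower. *Rpn1*, a subunit of the oligosaccharyltransferase, led the first list (1.59 ± 0.101, adjusted p = 1.7e-09) and *Ero1l*, the oxidase that recharges the disulfide isomerases, the second (3.39 ± 0.303, adjusted p = 9.1e-08), with 162 to 227 in resting Tconvs and 1499 to 2678 in resting iTregs. Of the other cytosolic chaperones 12 of 31 were higher and 3 lower, of the mitochondrial list 8 of 14 were higher and 1 lower, of the CCT and prefoldin list 5 of 10 were higher and 1 lower, and of the other degradation genes 2 of 20 were higher and 3 lower. Of the other unfolded protein response genes 2 of 17 were higher and 4 lower. Against resting tTregs, where 32.3% and 31.1% of all genes were, the same lists gave, in that order, higher and lower counts of 17 and 1, 13 and 2, 14 and 2, 10 and 1, 7 and 0, 5 and 3, and 1 and 5. On restimulation of iTregs, where 6.7% of all genes rose and 6.13% fell, 3 of 17 unfolded protein response genes fell, *Trib3* most (-1.10 ± 0.0764, adjusted p = 8.4e-08). Of 21 ER folding enzymes 3 fell, *Ero1lb* most (-0.95 ± 0.22, adjusted p = 0.0046). With CM-4620, where 1.5% of all genes were higher and 1.79% lower, *Chac1* was lower (-0.96 ± 0.191, adjusted p = 0.0057). Rises in these lists and the counts of the other lists are not given here, so no pattern is read from these falls.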

How the data were processed

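RNA-seq libraries were made by a modified SMART-seq2 method, which does not keep strand, with 22 PCR cycles and no molecular identifiers. Per the labels and the methods, the authors trimmed reads with cutadapt (1.18), aligned them to mm10 with STAR (2.5.3) and counted them on GENCODE GRCm38.m23 genes with RSEM (1.3.0), and the submitters' processing notes also name DESeq2 (1.26). The deposited values, 21950 genes in 24 libraries, are a count signal: each library's gene counts divided by 1 size factor, called normalized counts here. Every value was a whole multiple of its library's smallest value (100% of values within 0.01 of a whole number), and the whole reads recovered in this way gave the depth of each library and the input of the count tests. Floors of 3 reads cover counting error only. No column of the authors' own comparisons was present.

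The 42 members, the pathway lists and the tests were chosen with earlier results of these data known. Genes with at least 10 normalized counts in 3 or more libraries were tested with limma 3.58.1 (trend) on log2(normalized count + 1), in 1 fit of the 15 Tconv, tTreg and resting iTreg libraries (11495 genes) and 1 fit of the 12 iTreg libraries (11105 genes). p-values were adjusted by Benjamini-Hochberg over all genes tested, and errors after ± are standard errors unless given as SD. A gene passed at an adjusted p below 0.05 with a log2 fold change beyond 0.5 in size. Values per library are printed for the 2 most expressed members of each role and the largest called rise and fall of each comparison, with the same gene's values in other comparisons; single further values were chosen after they were seen. Of each further list the largest called rise or fall was named. Alternatives were another rescaling, quantile normalization, a pseudocount of 5, no filter or a filter of 100, other sets of libraries in the fit, a replicate block, leaving out each library, and edgeR 4.0.16 and DESeq2 1.42.0 on the recovered reads. The fit was also run on simulated data in which all libraries had the same spread. That run does not cover the wider spread of the tTreg libraries. The deposited table names genes by symbol, and positions, exon lengths and motifs came from GENCODE M21 and RefSeq on GRCm38. Other genes shared 16.9% of the exonic bases of *Tcp1*, 15.7% of *Hsp90b1*, 10.9% of *Ddit3* and 10.8% of *Dnaja1*, so reads of these bases cannot be told apart by position. For each of them at least 1 overlapping gene lies on the same strand, so strand would not separate all such reads. *Hspa8* has 5 pseudogenes with transcripts at least 95% identical over at least 200 bases, *Hsp90aa1* and *Dnaja1* 3 each and *Hspd1* 1, which were not analysed here. By the same rule *Dnaja1* also matched 1 gene with a row, *Smu1*, whose mean was 2125 normalized counts over the 24 libraries. *Tcp1* matched 2 genes with a row, the higher being *Acat2* at a mean of 952. The values of all these members are uncertain to that extent.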

Additional observations from a re-analysis of the deposited data

Results flagged for a closer look

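The activation response differed between Tconvs and tTregs, by the test of the interaction itself, for 17 of the 42 members. As a difference of log2 fold changes (Tconv minus tTreg) it passed as positive in 17% of all genes and as negative in 17.7%. Among the members it was positive for the ER genes *Hyou1* (0.99), *Calr* (0.78), *Pdia4* (0.88), *Atf6* (1.17) and *Edem1* (0.97). It was positive too for the cytosolic *Hsp90aa1* (1.10) and *Hsp90ab1* (1.01), the mitochondrial *Hspa9* (0.65) and *Hspd1* (1.38), and the CCT subunits *Cct2* (0.88), *Cct3* (0.92), *Cct8* (0.79) and *Tcp1* (1.12). It was negative for *P4hb* (-0.53), *Hsph1* (-0.85), *Dnajb1* (-1.23) and *Hsf1* (-0.74), of which *Dnajb1* and *Hsf1* fell in Tconvs and did not pass in tTregs. The call of *P4hb* was lost with rescaled size factors (-0.49, adjusted p = 0.026), quantile normalization (-0.47, adjusted p = 0.048), DESeq2 (-0.49, adjusted p = 0.017) and without any 1 of 4 tTreg libraries, and that of *Hspa9* without activated or resting tTreg replicate 2. The summed proliferation markers were 1989 to 2186 normalized counts in resting and 9895 to 10199 in activated Tconvs, and 1517 to 1856 in resting and 3235 to 4140.0 in activated tTregs, and their part in these differences was not tested.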

How the results depend on the processing

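Of 157 calls of a member in a comparison, 131 were kept under every alternative run, 26 were lost under some and none reversed; 18 were lost without 1 library, 14 with quantile normalization and 6 under another setting. Without 1 library, the count of members called ranged from 29 to 32 for Tconv activation, 13 to 16 for tTreg activation, 15 to 19 for their difference, 10 to 15 for resting tTregs against Tconvs, 27 to 30, 15 to 17 and 34 to 37 for resting iTregs against resting Tconvs, activated Tconvs and resting tTregs, 2 to 5 for restimulation, 0 to 1 for CsA (0 without restimulated replicate 3), and 0 to 0 for CM-4620 and for the inhibitors against each other. A replicate block raised the restimulation count from 2 to 6 (1 higher, 5 lower, adding *Dnajb9*, *Dnajb11*, *Sdf2l1* and *Xbp1*) and ended no call. Counts of all genes with the block or without 1 library are not given here, so these member counts do not show whether the members stand out. Same-numbered libraries deviated together at a mean correlation of 0.15 in the iTreg fit (10 of 18 pairs above 0.1, lowest -0.039), where libraries of different numbers gave -0.075. In the other fit, which holds the tTreg libraries, the same numbers gave -0.007 (6 of 30 above 0.1) and different numbers 0.0034. Deviations from a group's own mean cancel within the group. The value for different numbers therefore largely follows from that for the same numbers and is no separate reference. The numbers were not taken as pairs, and the labels do not say what they stand for. A filter of 100 left 153 of the 157 calls to compare. The tTreg libraries, with 5256800 to 9893053 reads, were also those where the most members spread over 1 on the log2 scale, *Xbp1*, *Sdf2l1*, *Dnajb11*, *Dnajc3* and *Creld2* in both groups. These were 7 members at rest (16.7%, beside 13.5% of all genes) and 5 after activation (11.9%, beside 13.7%), so the members were near all genes in this.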

Other observations

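The balance of partner chaperones, computed within each library after the values had been seen and without a test, differed between groups. The ratio of *Hsp90aa1* to *Hsp90ab1*, the inducible and constitutive cytosolic HSP90 genes, was 0.193 ± 0.00891 (SD, n = 3) in resting Tconvs and 0.127 ± 0.00264 (SD, n = 3) in activated Tconvs. It was 0.185 ± 0.00209 (SD, n = 3) in resting and 0.114 ± 0.00834 (SD, n = 3) in activated tTregs. Resting iTregs had the highest ratio, 0.367 ± 0.0146 (SD, n = 3), and restimulated iTregs had 0.261 ± 0.0141 (SD, n = 3), with 0.296 ± 0.0156 (SD, n = 3) under CM-4620 and 0.298 ± 0.0196 (SD, n = 3) under CsA. The ratio of *Hspe1* to *Hspd1*, whose products form the same mitochondrial chamber, was 0.485 ± 0.0813 (SD, n = 3) in resting and 1.06 ± 0.143 (SD, n = 3) in activated tTregs, against 0.513 ± 0.018 (SD, n = 3) and 0.563 ± 0.0539 (SD, n = 3) in resting and activated Tconvs and 0.375 ± 0.0583 (SD, n = 3) in resting iTregs.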
